A study of Mus musculus with 15 samples.

Results

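The regions described here are places in the macrophage genome where PU.1 was detected in both libraries made after a hairpin against PU.1 was induced, and in neither control library. The peaks of all 4 in vivo lists were joined into regions wherever they shared at least 1 bp, and regions were selected on the presence or absence of a peak in each list. The selection left 271 of 53107 merged regions, a share of 0.510%. With every list limited to as many top peaks as the shortest held, 1048 regions met the rule and 105 of the 271 were among them. Of the 10122 regions with a peak in both shPU.1 lists, 2.68% were selected. Because these values chose the regions, the presence pattern, the scores and the ranks below are descriptions and carry no test.

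Cells were bone marrow-derived macrophages of C57BL/6 mice on day 7 of differentiation, transduced with an inducible retroviral vector and analysed by chromatin immunoprecipitation (ChIP) with a rabbit antibody raised against the N-terminus of PU.1. The control group (n = 2 libraries) carried a hairpin against Renilla luciferase (sh-Renilla) in the vector that the sample titles call empty, and the knockdown group (n = 2 libraries) carried 1 hairpin against PU.1, named shPu.1 in the labels. Per the labels' protocols both groups were infected and selected alike with puromycin at 3 µg/ml from day 3, and doxycycline at 0.5 µg/ml was added on day 5 for 48 hours. A separate list was made on reconstituted chromatin, in which purified, sheared macrophage DNA of the same strain had been wrapped into nucleosomes with recombinant histones and incubated with macrophage nuclear extract depleted with normal IgG or with anti-PU.1. Its peaks were called on the IgG-depleted library against the PU.1-depleted one. Neither the age and sex of the mice nor whether the replicates are separate cultures is given in the sources used here. The lists carry no measure of how far PU.1 fell.

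PU.1 is an ETS-family transcription factor that binds a purine-rich site with a GGAA core, together with flanking bases that set its affinity. In macrophages it occupies many distal enhancers, where it helps to open chromatin and to mark the regulatory elements of the myeloid lineage. On chromatin assembled in vitro, PU.1 from a nuclear extract meets the DNA sequence and the nucleosomes laid on it, along with other nuclear factors of the extract, but without the chromatin that the cell had built.

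The lists differed in length and in peak width. They held 30026 and 36759 peaks in control replicates 1 and 2, 15122 and 27733 in shPU.1 replicates 1 and 2, and 57512 in vitro. Median peak width was 448 bp in shPU.1 replicate 1 and 1076 bp in shPU.1 replicate 2. The lists give no read counts, so the depth is unknown, and a control peak that missed the threshold cannot be told apart from no binding, nor fewer bound cells from weaker binding in each cell. The lowest score in the lists was 50, so a control peak below that score was not listed and did not bar a region.

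The selected regions tended to rank low in the shPU.1 lists. In the list of replicate 1 their score ran from 50.06 to 217.44 with a median of 67.85, and in that of replicate 2 from 50.05 to 662.8 with a median of 76.49. As percentiles within each list, with 100 the highest peak, the medians were 38.4 and 38.6. Regions found in 1 shPU.1 list only ranked lower still, with medians of 27.0 in replicate 1 and 20.4 in replicate 2. Both percentiles were below 50 for 128 of the 271 regions, at least 50 in 1 list for 108, and at least 50 in both for 35. That last count is 12.9%, against 65.4% of the regions with a peak in all 4 lists. Only 4 regions reached percentile 90 in either list. A score of at least 100 in both lists was seen in 16 regions (5.90%), against 43.8% of all regions with a peak in both shPU.1 lists.

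**Figure D1:**
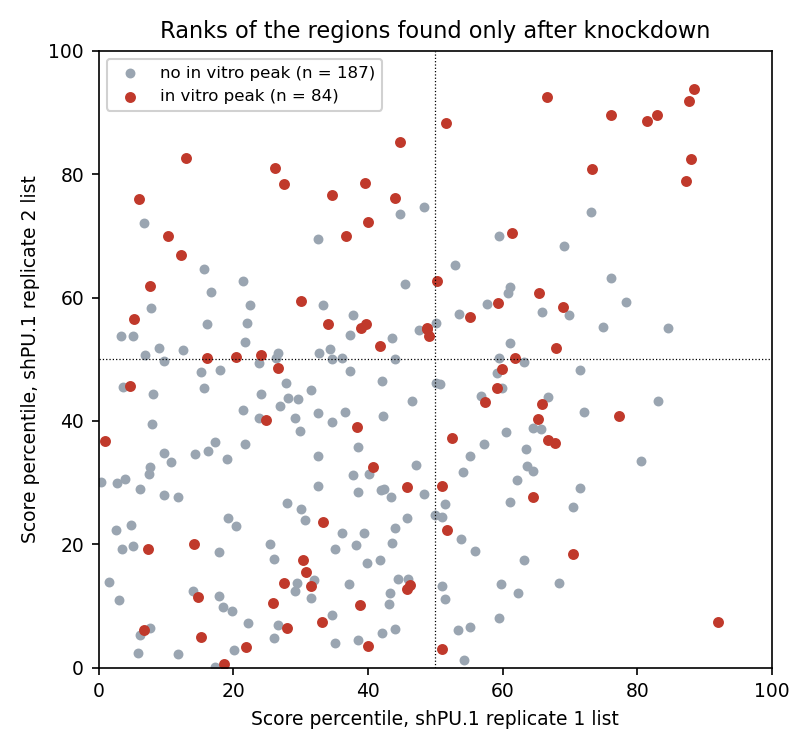
Each point is 1 of the 271 regions found only after knockdown, placed by the percentile of its score in the shPU.1 replicate 1 list (x axis) and in the replicate 2 list (y axis); red points hold an in vitro peak (84 regions) and grey ones do not (187). The median lies at 38.4 and 38.6, and 9 of the 10 points with the highest mean percentile are red.

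The order of the regions was only loosely shared by the 2 lists. Across the 271 regions the percentiles had a Spearman's rho of 0.205, against 0.661 across the 8666 regions with a peak in all 4 lists. Both values are across regions of the same pair of libraries, and the selected regions span a narrower range of scores. Regions with a peak in both shPU.1 lists and in 1 control list ranked in between, with a median mean percentile of 50.7, against 37.2 for the selected regions and 73.0 for those in all 4 lists.

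The 10 regions with the highest mean percentile are the top of a continuous range: the last of them had 73.6 and the region after it 69.9. The first, chr5:105355892-105357863 (mm9, counted from 1, as for all positions here), scored 181.98 in shPU.1 replicate 1 and 662.8 in replicate 2, with no peak in either control list. Next came chrX:120115354-120117450 with scores of 174.84 and 559.73. The region chr9:13422393-13423736 scored 146.37 and 464.96. All 3 had percentiles of at least 82.9 in both shPU.1 lists, and the nearest control peak lay 11947, 2193 and 30342 bp away.

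Others of the 10 lay far from any control peak. The region chr15:68435856-68436734 scored 176.73 and 297.61, with the nearest control peak 240295 bp away. The region chr17:13498642-13499248 scored 112.24 and 273.78, and its nearest control peak was 226240 bp away. For chr13:4560304-4561295, with scores of 172.07 and 247.31, the distance was 100379 bp. All 3 held an in vitro peak, and the one on chromosome 17 had the highest in vitro score of the 10, 2032.4.

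The remaining 4 of the 10 lay close to a control peak. On chromosome 19, the region 16185049 to 16185824 scored 139.42 and 434.64 and lay 1075 bp from a control peak of score 51.12, near the lowest score listed. The region chr19:12875056-12876365 scored 120.23 and 466.52 and lay 1206 bp from a control peak of score 922.36, at percentile 97.5 of its list. The region chrX:121300683-121304070 scored 98.02 and 596.81, 388 bp from a control peak of score 74.11. The region chr7:118267345-118268305 scored 112 and 199.06, 547 bp from a control peak of score 91.21. It was also the only 1 of the 10 without an in vitro peak.

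At the other end were regions that only just entered both lists. The lowest mean percentile, 4.11, belonged to chr13:43414553-43415501, with scores of 52.49 and 50.85. It was followed by chr2:93885515-93886478 (52.68 and 51.96) and chr1:80448491-80449109 (53.04 and 52.3). In all, 23 regions scored below 60 in both lists.

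The choice of regions also turned on single control peaks, some weak and some not. Just inside the rule, chr17:22497353-22497929 (scores 64.56 and 61.98) lay 17 bp from a control replicate 1 peak of score 78.2, and chr17:56427891-56429168 (59.68 and 102.04) lay 45 bp from a control replicate 2 peak of score 527.99. The next nearest were chr5:144431330-144432374 at 134 bp, chr8:70871922-70873051 at 226 bp and chr3:10418862-10419581 at 246 bp, each from a control peak of score 64.15 to 89.07. Just outside it, chr11:88828995-88831044 (95.95 and 335.18) shared 76 bp with a control replicate 2 peak of score 75.64, and chr15:85889286-85891174 (73.73 and 70.6) shared 95 bp with a control replicate 1 peak of score 64.27. Regions with a peak in both shPU.1 lists and in 1 control list numbered 1185. Of these, 1048 had their control peak in replicate 2 (median score 123.31) and 137 in replicate 1 (median score 73.4). That peak scored below 100 in 377 of the 1048 and in 110 of the 137. When all in vivo peaks under a score of 100 were left out, 105 regions had peaks in both shPU.1 lists alone, but only 16 of them were among the 271. The other 89 held a control peak that scored below 100. With 1 library left out, fewer lists had to agree and the count rose by construction, to 408 or 1331 regions with control replicate 1 or 2 dropped, and to 7592 or 3544 with shPU.1 replicate 1 or 2 dropped.

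With no control peak to join them, the peaks of both shPU.1 libraries had to overlap in every selected region, so their positions are a description. The midpoints of the paired peaks were a median of 109.5 bp apart (quartiles 40.3 and 216), and within 100 bp in 128 of 271 regions (47.2%). In regions of all 4 lists the median was 119 bp and the share within 100 bp was 43.7%. The replicate 1 peak lay wholly inside the replicate 2 peak in 212 regions (78.2%), against 94.7% in regions of all 4 lists. The shared stretch had a median of 390 bp and was under 100 bp in 4 regions.

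Merged regions were 399 to 10593 bp wide, with a median of 975 bp (quartiles 796 and 1192). Regions of all 4 lists were wider, with a median of 1408 bp, and part of their width comes from merging control peaks as well. The same order held within the shPU.1 lists alone. Replicate 1 peaks had a median of 413 bp in the selected regions and 484.5 bp in those of all 4 lists, and replicate 2 peaks 959 and 1308.5 bp. Peaks found in 1 shPU.1 list only were narrower in replicate 2, with a median of 763 bp, and close to the selected regions in replicate 1, with 408 bp. Only 11 selected regions reached 2000 bp. The widest, chr1:90107937-90118529, spanned 10593 bp because its replicate 2 peak did, and it held several replicate 1 peaks.

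The in vitro list played no part in choosing the regions, and it has no replicate, so shares are given with exact (Clopper-Pearson) 95% intervals that cover the counting of regions only. An in vitro peak overlapped 84 of the 271 regions, 31.0% (25.5 to 36.9), against a background of 22.3% over all merged regions. In vitro peaks covered 1.90% of the chromosomes, whose length was taken as the end of their last listed peak. A window of the same width set down anywhere on the same chromosome would meet an in vitro peak in 4.29% of places. The observed share was 7.22 times as high. After a shift of the in vitro peaks by 50 kb the share was 5.54%. With in vitro peaks and regions both trimmed to their central 200 bp it was 19.9%.

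**Figure D2:**
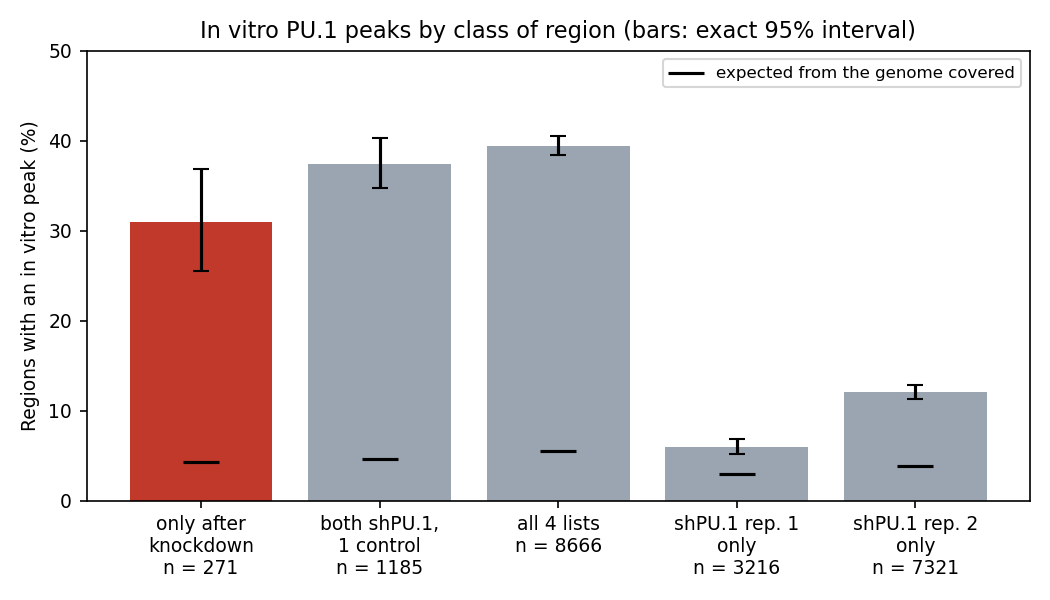
Bars give the percentage of regions with an in vitro PU.1 peak in each class, with exact 95% intervals; black dashes give the percentage expected from the part of the genome that in vitro peaks cover. The regions found only after knockdown (31.0%) lie nearer to those of all 4 lists (39.5%) than to those of a single shPU.1 list (6.00% and 12.0%).

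This share stood between those of the neighbouring classes. It was 37.5% (34.7 to 40.3) in regions with both shPU.1 lists and 1 control list and 39.5% (38.4 to 40.5) in regions of all 4 lists. It was 6.00% (5.21 to 6.88) in regions found in shPU.1 replicate 1 only and 12.0% (11.3 to 12.8) in those found in replicate 2 only. Relative to the share expected from coverage, the ratio was 7.22 for the selected regions, 8.01 with 1 control list, 7.08 for all 4 lists, 2.06 for shPU.1 replicate 1 only and 3.14 for shPU.1 replicate 2 only. A ratio as high was also seen in a single list: regions of control replicate 2 only had a share of 26.9% (26.0 to 27.8) and a ratio of 7.26, while those of control replicate 1 only had 6.94% and 2.45. Leaving out control replicate 2 gave 37.3%. With shPU.1 replicate 1 left out it was 12.7%, and leaving out shPU.1 replicate 2 it was 8.58%, mostly from regions of a single list.

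The in vitro share differed with rank, though not steadily, so the classes were also set side by side in tiers of rank. The 271 regions were cut into 3 equal tiers at mean percentiles of 29.9 and 45.7, and the other classes were cut at the same values. In the lowest tier the share was 24.2% (15.8 to 34.3) in the selected regions and 28.2% (23.7 to 33.1) in regions of all 4 lists. In the middle tier it was 21.1% (13.2 to 31.0) and 26.5% (23.8 to 29.5). In the highest tier it was 47.8% (37.1 to 58.6) and 41.7% (40.6 to 42.8). That tier has no upper bound and held 7344 of the 8666 regions of all 4 lists, which rank higher as a class. Its shares are therefore not at like rank. In every tier the intervals of the 2 classes overlapped, and they are wide for the selected regions, with 90 or 91 in a tier. The selected regions were also taken without the 19 within 100 kb of another, a limit chosen after the positions were seen. Their shares were then 23.9%, 18.8% and 40.5% (29.6 to 52.1) from the lowest tier to the highest.

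**Figure D3:**
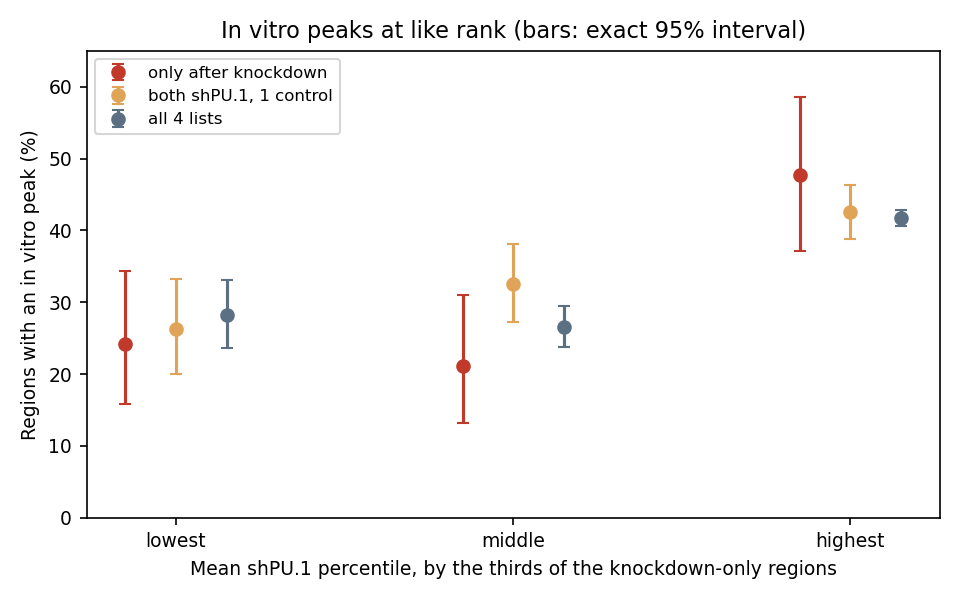
Points give the percentage of regions with an in vitro peak (y axis) in 3 tiers of mean shPU.1 percentile (x axis), cut so that the regions found only after knockdown fall into equal tiers; bars are exact 95% intervals. For those regions the share was 24.2%, 21.1% and 47.8% from the lowest to the highest tier, and the intervals of the 3 classes overlap within each tier. The highest tier has no upper bound, so the classes differ in rank within it.

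Against peaks of a single list the difference was seen within tiers of rank too, the highest again without an upper bound. Tiers were cut by the percentiles of the selected regions in the list itself. In the replicate 2 list the highest tier held an in vitro peak in 47.8% of the selected regions and in 24.95% (21.2 to 29.0) of regions found in that list only. In the middle tier the shares were 18.9% (11.4 to 28.5) and 14.1% (12.6 to 15.7), with overlapping intervals, and in the lowest 26.4% (17.7 to 36.7) and 9.78% (8.95 to 10.7). In the replicate 1 list the shares were 26.4%, 28.9% and 37.8% from the lowest tier to the highest, against 5.52%, 5.70% and 8.78% in regions of that list only. Selected regions were wider than those of the replicate 1 list alone, and coverage by itself gave 4.18 to 4.37% for the former and 2.90 to 2.95% for the latter.

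Where an in vitro peak was present it was often a strong one. Its percentile in the in vitro list had a median of 78.2. That percentile was at or above 50 in 65 of 84 regions (77.4%) and at or above 90 in 26 (31.0%). In the 3420 regions of all 4 lists with an in vitro peak the median was 70.3. There 68.8% were at or above 50 and 23.7% at or above 90. The in vitro and shPU.1 midpoints were a median of 133 bp apart in replicate 1 and 129 bp apart in replicate 2. For regions of all 4 lists these distances were 92.5 and 136 bp. Regions with an in vitro peak had a median mean percentile of 46.6, against 35.0 for the 187 without one. Their median width was 1010 bp, against 961 bp.

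The regions with the strongest in vitro peaks included some modest ones in cells. The highest in vitro score, 3100, was reached at chr15:74915435-74918047, which scored 217.44 in shPU.1 replicate 1, the highest of all 271 there, but 52.83 in replicate 2. The same in vitro score was reached at chrY:2864191-2865258 (69.98 and 100.46), within an in vitro peak that ran from 2849686 to 2865416. The value 3100 was also the highest score of control replicate 1, and it does not order the regions that tie at it. At chr17:13498642-13499248, described above, the in vitro score was 2032.4 and the in vitro peak lay from 13498672 to 13499238, nearly matching the bounds of the region. The other 2 of the 5 highest, chr1:90107937-90118529 and chr1:90119545-90121796, shared 1 in vitro peak of score 1693.6.

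The rule barred only an overlap with a control peak, and many of the regions lay near one. The distance from region edge to control peak edge had a median of 11947 bp (quartiles 3378 and 32437) and ran from 17 to 1556553 bp. The median was 3816 bp when in vivo peaks were trimmed to 200 bp, 19966 bp at an in vivo score of at least 100, 21681 bp with equal list lengths and 29290 bp to control peaks of at least 100. A control peak lay within 1 kb of 26 regions (9.59%), against 4.95% of all 10808 regions without a control peak. Within 10 kb there were 123 (45.4%, background 32.5%), and within 100 kb 240 (88.6%, background 79.3%). A window of the same width set down on the same chromosome, clear of control peaks, would lie within these distances in 2.87%, 20.0% and 55.4% of places.

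**Figure D4:**
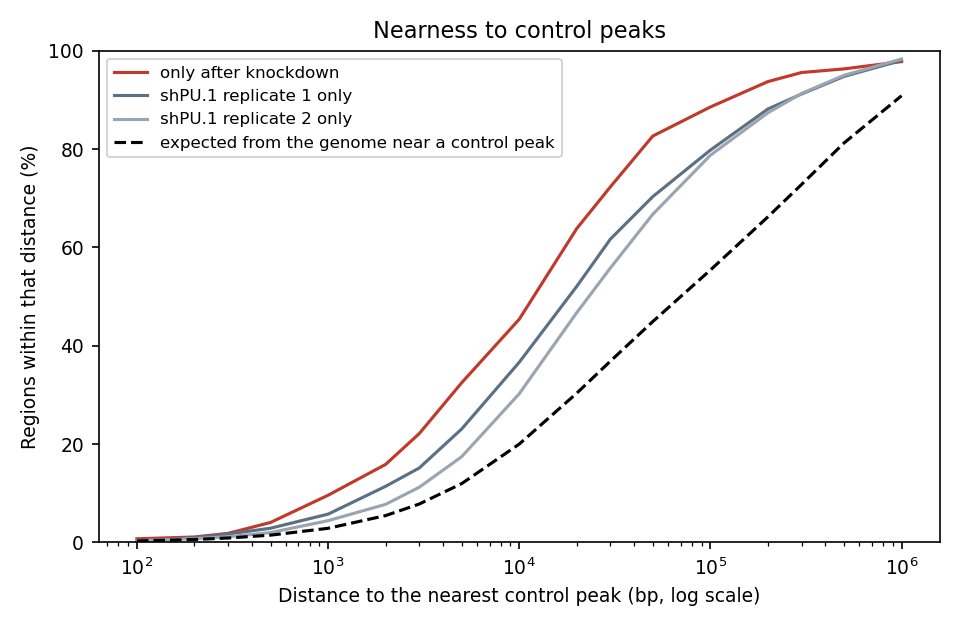
Lines give the percentage of regions (y axis) whose nearest control peak lies within the distance on the x axis (bp, log scale), for regions found only after knockdown and for regions of a single shPU.1 list; the dashed line is the share expected from the part of the genome that lies so near a control peak without overlapping one. Within 10 kb the values are 45.4%, 36.6%, 30.2% and 20.0%, so the regions found only after knockdown lie to the left of the others.

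Regions of a single shPU.1 list lay farther out, with medians of 18494 bp in replicate 1 and 23074 bp in replicate 2. The nearest control peak was from replicate 2 for 220 of the 271 regions and from replicate 1 for 51. The replicate 2 list is the longer of the pair. That control peak was not a strong one as a rule: its percentile in its own list had a median of 40.6. For 52 of 271 regions (19.2%) it lay in a region of all 4 lists, a class that makes up 20.5% of regions with a control peak. It lay in a region of both control lists and no shPU.1 list for 8.86% (14.9% of regions with a control peak), in one of control replicate 1 only for 11.1% (12.6%), in one of control replicate 2 only for 23.6% (22.2%) and in one of the other patterns for 37.3% (29.7%). The in vitro share did not follow the distance: it was 33.0% (23.5 to 43.6) in the nearest tier of up to 5158 bp, 24.4% (16.0 to 34.6) in the middle one and 35.6% (25.7 to 46.3) beyond 24669 bp.

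The 5 regions farthest from control binding held an in vitro peak, but 4 of them were neighbours, and the next farthest, chr14:84853827-84854333 at 1510372 bp (looked up after the values were seen), held none. These 4 sat together on chromosome 3 between 25421587 and 25455186, more than 1.5 Mb from the nearest control peak. Their scores were 68.51 and 109.56 at 25421587 to 25423374, 86.26 and 86.33 at 25426227 to 25427023, 71.93 and 220.04 at 25434580 to 25436817, and 89.93 and 95.7 at 25454334 to 25455186. The stretch of 33.6 kb had 5 peaks in shPU.1 replicate 1, 14 in shPU.1 replicate 2, 16 in vitro and 0 in either control list. The fifth was chrX:122847086-122847687, with scores of 100.69 and 99.45 and 1538549 bp to the nearest control peak.

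Regions also gathered in a few other stretches. Chains of regions with gaps of up to 100 kb, a limit chosen after the positions were seen, formed 6 stretches with 19 regions. In these, 15 of 19 regions held an in vitro peak (78.9%, 54.4 to 93.9), against 69 of the other 252 (27.4%, 22.0 to 33.3). The first interval counts each region as separate, although neighbours in a stretch may share an in vitro peak, so it is too narrow for 6 stretches. On chromosome X, 5 regions lay between 121267897 and 121313466, all with an in vitro peak. That stretch held 18 in vitro peaks, 10 peaks in each shPU.1 list, and 1 and 2 control peaks. The closest pair of all was there, 148 bp apart, with scores of 61.65 and 275.28 and of 52.57 and 216.9. On chromosome 1, 4 regions between 90107937 and 90192031 shared the stretch with 19 in vitro peaks, 14 and 10 shPU.1 peaks, and 4 and 6 control peaks. Of the others, 1 pair on chromosome 10 held no in vitro peak, 1 pair on chromosome 14 held 1, and both regions of a pair on chromosome X, between 120776519 and 120778988, held one. Pairs within 1 Mb numbered 69, where even placement of the same number of regions on each chromosome would give 30.3. Pairs within 10 kb numbered 7, against 0.307. The other classes were not counted in this way, so whether such gathering is particular to these regions was not tested. Whether reads in these stretches align to a single place was not tested, and no filter for repeated sequence was applied here.

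Every chromosome but the mitochondrial one held some of the regions, at unequal numbers. Chromosome 3 had the most, with 29, where its share of the regions in both shPU.1 lists would give 13.9 and its length 16.4. It still had 25 outside stretches, where 12.9 would follow from that share. Chromosome 10 had 22 (14.6 and 13.3) and chromosome 13 had 18 (13.4 and 12.3). Chromosome 11, with 724 regions in both shPU.1 lists, had 11, where the shares would give 19.4 and 12.5. None of these 11 held an in vitro peak. The in vitro share of other classes on chromosome 11 was not computed. Summed over the chromosomes above expectation, 48.3 regions lay beyond the numbers given by the regions in both shPU.1 lists. The sum was 39.1 with expectations from length, and 37.7 without the regions in stretches. Counting variation alone adds to such a sum, and how much it would give was not computed.

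**Figure D5:**
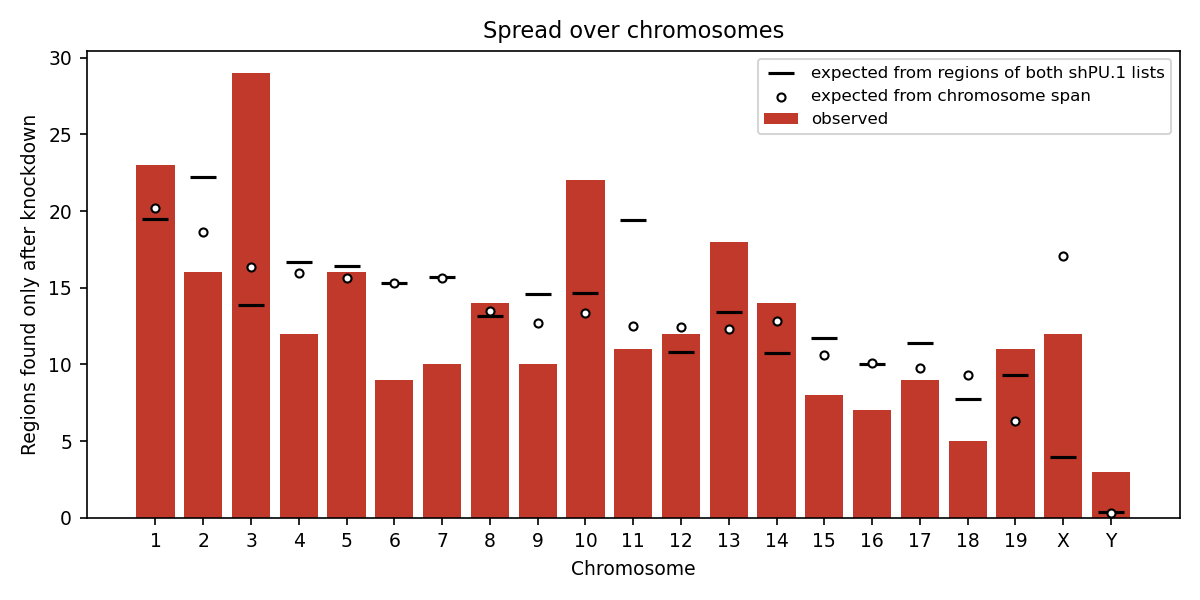
Bars give the number of regions found only after knockdown on each chromosome; dashes give the number expected from each chromosome's share of all regions in both shPU.1 lists and open circles the number expected from its span. Chromosome 3 holds 29 regions, above both expectations (13.9 and 16.4), and chromosome X holds 12, above the first (3.96) and below the other (17.1).

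Most regions on the sex chromosomes held an in vitro peak. Chromosome X held 12 of the 271 regions, where the shPU.1 regions would give 3.96 and its length 17.1. An in vitro peak was held by 10 of the 12 (83.3%, 51.6 to 97.9). That interval counts each region as separate, although stretches of 5 and 2 neighbours were among them. Of these 12 regions, 9 lay beyond 120 Mb, from 120115354 to 122847687, and all 9 held an in vitro peak. The other 3 lay elsewhere, and 1 of them held one. Among the 106 X regions of all 4 lists the share was 36.8% (27.6 to 46.7). Chromosome Y held 3, all with an in vitro peak, within the 2.90 Mb up to its last peak. Its 14 regions in both shPU.1 lists would give 0.375 and its length 0.298. The in vitro share of other classes on chromosome Y was not computed. On the autosomes the share was 27.7% (22.3 to 33.7) of 256 regions, against 39.5% (38.4 to 40.5) of autosomal regions of all 4 lists.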

How the data were processed

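The submitters' processing notes name Bowtie 0.12.7, MACS 1.4 and mm9, and no parameters were found in the labels. The deposited files are 5 peak lists, 1 for each of the 4 in vivo libraries against an input and 1 for the pair of in vitro libraries, per the file names. Each peak has a score, deposited by the authors, which grows with depth and so served to rank and filter peaks. Levels were not compared between lists, but a score of 100 or 60 applied to several lists does not mean the same in each. The 9 nuclease digests of the 15 samples were not analysed here.

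Peaks were merged at 1 bp of overlap with Python 3.11.15 and numpy 2.4.6, and intervals are exact binomial (scipy 1.17.1, 95%). A region's percentile in a list is that of its highest peak. Expected shares were computed from the span covered, up to the last peak on each chromosome, with no random draws. With 2 libraries against 2 and regions chosen by that contrast, no test was made. The code was tested on made-up lists.

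The regions, lists and rules were chosen with earlier results of these data known. Named regions are the 10 highest by mean percentile, the 5 highest by in vitro score, the 5 nearest to and 5 farthest from a control peak, the 3 lowest and the closest pair. Sequence and gene results had been planned, but no mm9 genome was used here, so regions carry no gene names.

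Alternatives were stricter scores, trimmed peaks, equal list lengths, each library left out, other merging, a replicate block, autosomes only and other in vitro or distance measures.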

Additional observations from a re-analysis of the deposited data

How the results depend on the processing

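The number of regions depended on the threshold and on each library. It was 105 at an in vivo score of at least 100 and 1048 with equal list lengths, of which 16 and 105 were among the 271. Leaving out 1 library gave 408 (without control replicate 1) to 7592 (without shPU.1 replicate 1), since fewer lists then have to agree. The other counts were 1331 without control replicate 2 and 3544 without shPU.1 replicate 2. It was 303 with trimmed peaks, of which 195 of the 271 were matched.

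The share with an in vitro peak was 43.8% in the regions chosen anew at an in vivo score of at least 100. In the 271 regions it was 24.0% at an in vitro score of at least 100. There it was 19.9% with in vitro peaks and regions trimmed to 200 bp and 5.54% with a shift of 50 kb. Leaving out 1 library gave 8.58% to 37.3%, the low values without shPU.1 replicate 2 (8.58%) and 1 (12.7%).

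In regions chosen anew, the median distance to a control peak was 19966 bp at an in vivo score of at least 100. It was 3816 bp with trimmed peaks and 21681 bp with equal list lengths. In the 271 regions it was 29290 bp to control peaks of at least 100. Leaving out 1 library gave 13459 to 22384 bp. The shared stretch in place of the region had a median width of 390 bp.

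Taking the replicate number as a block (shPU.1 against control of the same number, mean over both) gave 6789.5 regions, 14.9% with an in vitro peak and 21688.8 bp to a control peak. Nothing in the labels ties equal numbers to 1 mouse or day. Leaving out regions in stretches or of at least 2000 bp, chosen after seeing the data, gave 27.4% and 29.2%. The alternatives for sequence were not run.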
